A study of Arabidopsis thaliana with 4 samples.

Results

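The cold and dehydration responsive COR and CBF genes of Arabidopsis thaliana were followed in the aerial organs of otp90 and wild-type plants. They are the COR genes LTI78 (also called RD29A, AT5G52310), COR15A (AT2G42540), COR15B (AT2G42530) and KIN1 (AT5G15960), the dehydrin genes COR47 (AT1G20440) and ERD10 (AT1G20450), and the transcription factor genes CBF1 (AT4G25490), CBF2 (AT4G25470) and CBF3 (AT4G25480). These 9 of the 33602 gene models in the deposited files were picked by locus, with earlier results of these libraries known. Which values led to the choice is not given, so their levels and differences are a description. All 9 are listed in every library, and 5 had enough counts to be tested. KIN1 and the CBF genes did not.

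The mutant was otp90, the knock-out line SM_3_29659, and the wild type was Col-0, with 2 RNA libraries of each. Both genotypes grew untreated in soil, at temperatures between 18 and 21 °C, hygrometry between 50 and 70% and light up to 90 µE. No cold or drought treatment is named for either group, and aerial organs were taken at Boyes stage 1.09. The labels name 1 mutant line and do not state that separate plants gave the libraries. Spread between them, and any p resting on it, can therefore be technical.

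CBF proteins are AP2/ERF transcription factors that plants make within minutes to hours of cooling. They bind the C-repeat or dehydration-responsive element (CRT/DRE), whose core is CCGAC, in front of COR genes, and COR and dehydrin proteins protect membranes and proteins when cells freeze or lose water. Abscisic acid reaches many of the same genes through the element ABRE, with the core ACGTG, and the circadian clock gates CBF expression by time of day. In leaves kept warm and watered, the CBF genes are known for low and short-lived expression.

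The sequences in front of these genes differ in how many CRT/DRE cores they hold. RefSeq's TAIR10.1 assembly was searched on both strands, in the 250 bases before each annotated transcript start and in the 600 bases before each start codon. LTI78 had 3 cores in the shorter window and COR15A had 2, and the other members had none there. That window depends on the annotated start, which lies 1209 bases before the start codon in COR47, 560 in COR15B and 499 in ERD10. The files' models are shorter than the annotated transcripts in COR47 (1219 against 2320 bases) and COR15B (653 against 1584). An absence of cores in the shorter window therefore holds for the annotated start only. In LTI78 and COR15A that start lies 212 and 364 bases before the start codon. Of 27443 protein-coding genes, 12% had at least 1 core in such a window, 1.46% at least 2 and 0.197% at least 3. Both promoters are printed because these genes have the most cores and peaked in different libraries, with CCGAC, or GTCGG where the core lies on the other strand, in capitals.
LTI78 promoter (chr5:21240467-21240716, plus strand): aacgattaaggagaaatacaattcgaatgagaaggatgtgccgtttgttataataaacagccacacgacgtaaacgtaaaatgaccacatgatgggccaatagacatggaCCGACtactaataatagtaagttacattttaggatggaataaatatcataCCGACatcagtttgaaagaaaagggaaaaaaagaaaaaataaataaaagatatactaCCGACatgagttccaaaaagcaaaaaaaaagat
COR15A promoter (chr2:17712331-17712580, minus strand): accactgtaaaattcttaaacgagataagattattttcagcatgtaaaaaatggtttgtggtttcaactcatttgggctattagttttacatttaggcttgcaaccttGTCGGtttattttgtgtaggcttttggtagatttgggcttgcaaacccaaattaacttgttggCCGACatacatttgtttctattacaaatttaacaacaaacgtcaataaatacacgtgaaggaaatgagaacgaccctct

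The longer window includes the annotated leader, or part of it in COR47. It held 4 cores in LTI78, 3 in COR15A, 3 overlapping in ERD10 and 1 each in COR15B, COR47 and KIN1. There were none in CBF1, CBF2 and CBF3. At least 1 core was found in 26.9% of all protein-coding genes in that window, and at least 3 in 1.17%. The sites that lie inside annotated leaders are shown with the cores in capitals, and with the site of KIN2 (AT5G15970), the neighbour and close relative of KIN1.
LTI78 (chr5:21240713-21240733, plus strand): agatcaagCCGACacagacac
COR15A (chr2:17712220-17712240, minus strand): tttcatggCCGACctgctttt
COR15B (chr2:17710126-17710146, minus strand): cttgatggCCGACctcttttt
COR47 (chr1:7085920-7085940, minus strand): ttcatctaCCGACttcaagaa
ERD10 (chr1:7089365-7089393, minus strand): ttcatccaCCGACCGACCGACgtaaaaga
KIN1 (chr5:5209806-5209826, plus strand): aatagctaCCGACataaggca
KIN2 (chr5:5211773-5211793, plus strand): aaaagctaCCGACataaggca

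The ABRE core ACGTG was matched on both strands, so CACGTG, which reads the same on both, counts as 2 matches. Such matches in the longer window numbered 5 in COR15A, 5 in KIN1, 3 in COR15B, 3 in CBF1 and 2 in CBF2. LTI78, COR47 and CBF3 had 1 each and ERD10 had none. These are matches and not separate sites, and the 2 in CBF2 come from the same CACGTG. At least 1 match was found in 39.4% of all protein-coding genes in that window. CCGCGT, a motif bound by CAMTA factors, which are calcium-responsive activators of CBF2, was once in the shorter window of CBF2, and in the longer window it was found once each in CBF2, COR47 and ERD10. It was in 1.76% of all protein-coding genes in the shorter window and in 4.18% in the longer. The promoter is printed because CBF2 had most of its counts in 1 library of each genotype, and capitals mark CCGCGT.
CBF2 promoter (chr4:13016236-13016485, minus strand): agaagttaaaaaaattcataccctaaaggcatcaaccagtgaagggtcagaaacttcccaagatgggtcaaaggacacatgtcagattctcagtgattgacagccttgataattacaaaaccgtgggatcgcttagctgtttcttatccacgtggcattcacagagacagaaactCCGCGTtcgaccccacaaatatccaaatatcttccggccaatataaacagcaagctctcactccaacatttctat
A match is a run of letters and no measure of binding, and the deposited counts hold no data on binding.

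**Figure D1:**
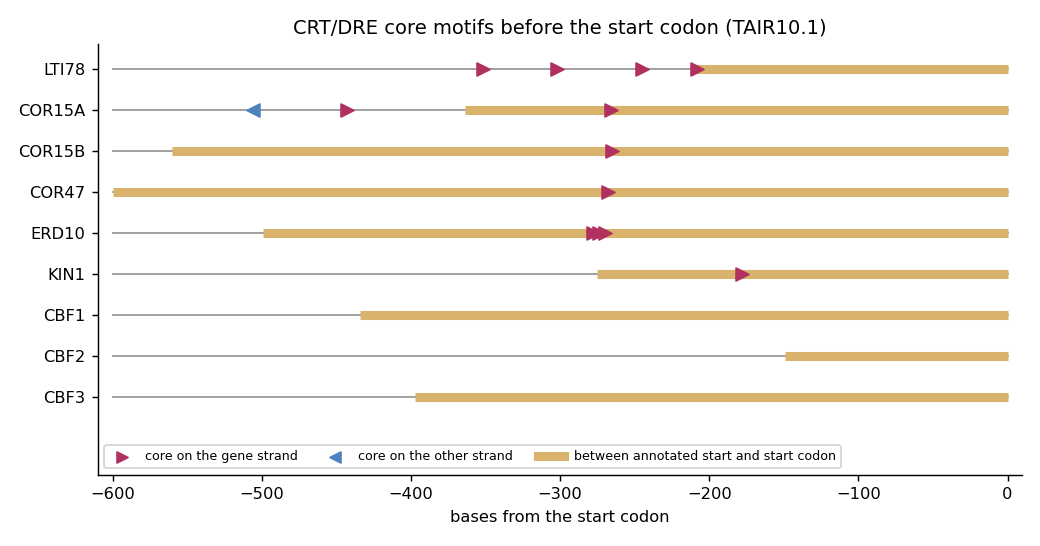
CRT/DRE cores (CCGAC) in the 600 bases before the start codon of the 9 genes, with distance in bases on the x axis. Triangles mark cores on the gene strand (pointing right) or the other strand (pointing left), and the thick line runs from the annotated transcript start to the start codon. LTI78 holds 4 cores, COR15A and ERD10 hold 3, and the CBF genes hold none.

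Several of the genes are neighbours. COR15A and COR15B lie next to each other on chromosome 2, at 17710441 to 17712330 and 17708593 to 17710433 of TAIR10.1. COR47 and ERD10 are neighbours on chromosome 1, at 7084409 to 7086873 and 7087903 to 7089606. CBF2, CBF3 and CBF1 follow each other on chromosome 4, at 13015250 to 13016235, 13018010 to 13019400 and 13021780 to 13022996. KIN1 and KIN2 are neighbours on chromosome 5, at 5209717 to 5210826 and 5211719 to 5212743, and LTI78 lies on that chromosome at 21240717 to 21243644. These neighbours are also similar in sequence, and reads that aligned equally well to more than 1 place were removed before counting. The longest exact run shared was 68 bases between CBF1 and CBF2, 58 between KIN1 and KIN2 and 57 between CBF3 and CBF2. Between COR15A and COR15B it was 31, so the counts of the CBF and KIN genes are the less certain ones. Still, the stretches of 50 bases shared by a pair were few. They made up 2.48% of those in CBF1 and 3.09% in CBF2, and 1.28% in KIN1 and 1.43% in KIN2. The part of tied reads in these counts was not tested. In the TAIR10.1 annotation COR15B overlaps AT2G42520, a gene at 34.1 to 49.5 CPM. CBF3 overlaps AT4G07385 there, which is not among the counted gene models. The sources used here do not give the strand setting of the counting.

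The libraries differed in depth. Counted reads numbered 1489112 and 1841972 in otp90 and 2685718 and 1828745 in Col-0, so Col-0 replicate 1 was the deepest library. Removal of tied reads took 87.0% and 80.4% of mapped reads in otp90 and 79.9% and 84.8% in Col-0. Summed leaf markers (RBCS1A, LHCB2.1, GAPA, RCA and PSBO1) ran from 13147 to 22283 CPM, counts per 1000000 counts of the scaled library. Root markers ran from 45.6 to 124, flower markers from 2.49 to 7.64 and seed markers from 2.49 to 9.03, with SESA3 at 0 in all 4 libraries. Libraries also differed by replicate number. With genotype as a term, edgeR's quasi-likelihood test called 96 of 11938 genes between numbers at an adjusted p under 0.05, 92 of them lower in number 2. The leaf marker LHCB2.1 was among these, with 76.2 and 93.9 CPM in the number 2 libraries of otp90 and Col-0, against 1416 and 1193 CPM in number 1 (edgeR, adjusted p = 0.00124).

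LTI78, whose promoter is widely used as a reporter of cold, drought and abscisic acid, stood out in 1 wild-type library. It had 106 and 193 counts in otp90 replicates 1 and 2 (88.1 and 109.8 CPM), against 2093 and 165 in Col-0 replicates 1 and 2 (859 and 90.1 CPM). The otp90 libraries and Col-0 replicate 2 lay close together, and Col-0 replicate 1 was 7.83 times the next library. That ratio was the largest for Col-0 replicate 1 among all 11938 genes tested, ahead of ARCK1 at 5.49 and the abscisic acid receptor gene PYL7 at 5.44. Genes with too few counts to be tested were not ranked. One of them, ANAC019 of the abscisic acid response factors, had a ratio of 10.9 there. It had 1 and 0 counts in otp90 and 22 and 0 in Col-0. Col-0 replicate 1 was also the deepest library. Its 5 leaf markers summed to 13147 CPM, against 14868 to 22283 in the others, but only GAPA and RCA were lowest there. The part of depth or leaf markers in these values was not tested. In bulk libraries, fewer cells making a transcript and less transcript per cell cannot be told apart.

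COR15A and COR15B encode chloroplast stroma proteins that stabilise membranes during freezing, and they peaked in another library. COR15A had 20 and 137 counts in otp90 (16.6 and 77.9 CPM), against 57 and 58 in Col-0 (23.4 and 31.7 CPM). COR15B had 6 and 75 counts in otp90 (4.99 and 42.7 CPM), against 42 and 22 in Col-0 (17.2 and 12.01 CPM). In both genes otp90 replicate 2 was the highest library, 2.46 and 2.47 times the next, and otp90 replicate 1 the lowest, with both Col-0 libraries between. KIN2, a small hydrophilic protein gene, was also highest in otp90 replicate 2, at 64.8 and 190.5 CPM in otp90 and 186 and 94.4 CPM in Col-0, although Col-0 replicate 1 was close to it. Of the 5 root markers (PYK10, WER, SCR, PLT1 and SHR), PYK10 and SCR were highest in that otp90 library too and the other 3 were not. Their sum was 124 CPM there against 45.6 to 59.8 in the others, of which PYK10 gave 91.6, and WER was at 0 there. Their part in these values was not tested.

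The dehydrin genes followed LTI78 in their highest library, with smaller differences. COR47 had 333 and 231 counts in otp90 (276.8 and 131 CPM), against 1230 and 288 in Col-0 (505 and 157 CPM). ERD10 had 89 and 105 counts in otp90 (74.0 and 59.7 CPM), against 363 and 74 in Col-0 (149 and 40.4 CPM). Col-0 replicate 1 was the highest library for both, at 1.82 and 2.01 times the next, and the genotypes overlapped. ERD14, another dehydrin gene, was less spread, at 357 and 312 CPM in otp90 and 548 and 348 CPM in Col-0. At over 2 times every other library, LTI78 and ERD10 stood in Col-0 replicate 1, as did 1.75% of genes tested, and COR15A and COR15B in otp90 replicate 2, as did 1.14%.

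The CBF genes and KIN1 were near the limit of detection. CBF1 had 1 and 5 counts in otp90 and 13 and 0 in Col-0. CBF2 had 8 and 0 counts in otp90 and 12 and 1 in Col-0. CBF3, annotated as DREB1A, had 6 and 1 counts in otp90 and 11 and 3 in Col-0. For CBF2 and CBF3 the replicate 1 library was the higher one in both genotypes, while CBF1 was higher in otp90 replicate 2 than in otp90 replicate 1. KIN1, for a small hydrophilic protein made in the cold, had 1 and 0 counts in otp90 and 6 and 1 in Col-0. A count of 0 allows up to 3 counts, which is 1.71 per 1000000 non-rRNA counts in otp90 replicate 2 and 1.74 in Col-0 replicate 2. The drought-responsive relative CBF4 had 3 counts in all libraries together, and RD29B, the abscisic acid responsive relative of LTI78, had 22.

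**Figure D2:**
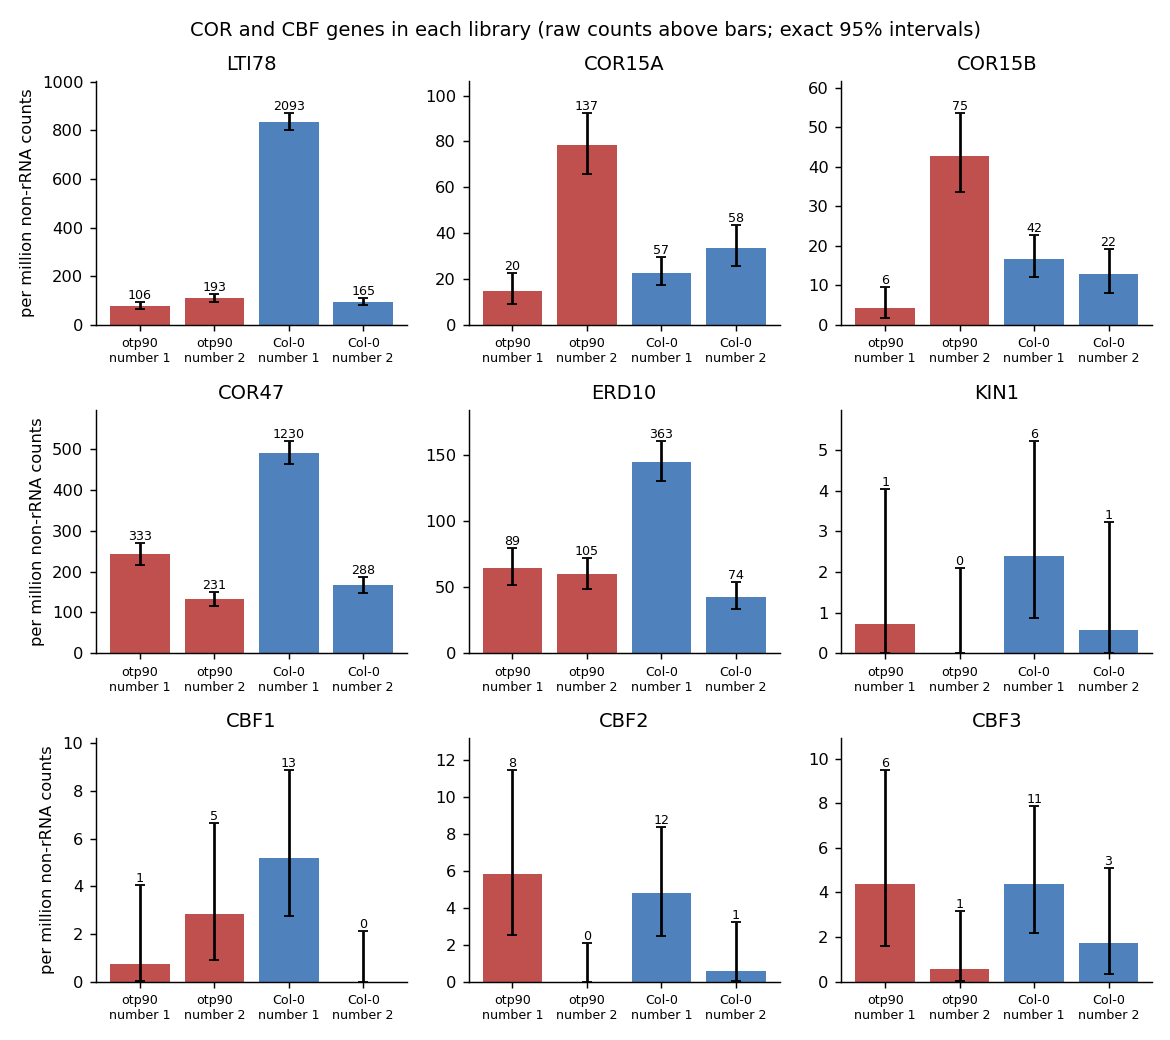
Counts of each gene per 1000000 non-rRNA counts of its library (y axis, linear from 0) in the 2 otp90 and 2 Col-0 libraries, with exact 95% binomial intervals that cover counting error only and raw counts above the bars. LTI78, COR47 and ERD10 are highest in Col-0 number 1, with 2093, 1230 and 363 counts, while COR15A and COR15B are highest in otp90 number 2, with 137 and 75.

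Per kilobase of gene model, levels fell into an upper and a lower tier. COR47 averaged 219.5 CPM per kilobase over the 4 libraries, with a range of 107.8 to 414. LTI78 averaged 115 (35.2 to 344), ERD10 53.4 (26.7 to 98.4), COR15A 49.5 (22.0 to 103) and COR15B 29.4 (7.64 to 65.3). Each of these ranges overlapped that of the next gene in the order. CBF3 at 3.22, CBF2 at 3.21, CBF1 at 2.38 and KIN1 at 1.75 CPM per kilobase formed the lower tier, where no library passed 7.04, and their ranges overlapped as well. COR15B and CBF3 were the only neighbours in the order whose ranges did not overlap. The files' gene models differ from the annotated transcripts in length for many genes, and only 25.3% of the nuclear protein-coding models equal an annotated transcript, which limits these levels.

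Summed over COR and dehydrin genes, the share was 404 per 1000000 non-rRNA counts in otp90 replicate 1 (exact 95% binomial interval 371 to 439) and 423 in otp90 replicate 2 (393 to 455). In Col-0 it was 1514 in replicate 1 (1467 to 1563) and 353 in replicate 2 (325 to 382). The first Col-0 library stood apart and the others lay between 353 and 423. LTI78 alone made up 19.1% and 26.0% of these counts in otp90 and 55.2% and 27.1% in Col-0. The mean difference, otp90 minus Col-0, was -520, and 60.7 without Col-0 replicate 1. The CBF genes together took 10.9 per 1000000 in otp90 replicate 1 (6.11 to 18) and 3.43 in otp90 replicate 2 (1.26 to 7.46). They took 14.4 in Col-0 replicate 1 (10.07 to 19.9) and 2.32 in Col-0 replicate 2 (0.632 to 5.94).

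Between otp90 and Col-0, none of the 5 tested genes passed edgeR's quasi-likelihood test, with an adjusted p of 0.9998 each, and 0% of all genes tested passed. At an unadjusted p under 0.05 there was 1 of the 5 by edgeR, LTI78, against 1.41% of all genes. By DESeq2 there was 1 of the 5, against 96 of 11938 genes. LTI78 averaged 98.9 ± 15.3 CPM in the otp90 libraries and 475 ± 544 CPM in the Col-0 libraries (SD, with n = 2 libraries each). Its log2 fold change was -2.26 (SE 0.88). The spread in Col-0 exceeded its mean. Within replicate number 1 the log2 difference was -3.27, and within number 2 it was 0.28. Without Col-0 replicate 1 the fold change was 0.15, and without Col-0 replicate 2 it was -3.10 and passed (edgeR, adjusted p = 0.000533). In that fit 33 of 13334 genes passed, Col-0 has only its number 1 library, the one in which LTI78 was highest, and that library is assumed to vary like the otp90 pair.

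COR15A averaged 47.3 ± 43.3 CPM in the otp90 libraries and 27.5 ± 5.84 CPM in the Col-0 libraries (SD, with n = 2 libraries each). Its log2 fold change was 0.80 (SE 0.68). COR15B averaged 23.8 ± 26.6 CPM in the otp90 libraries and 14.6 ± 3.70 CPM in the Col-0 libraries. Its log2 fold change was 0.72 (SE 0.83). Both were lower in otp90 within number 1, at -0.47 and -1.59, and higher within number 2, at 1.27 and 1.74. Without otp90 replicate 2 they were at -0.70 and -1.52. COR47 was at 204 ± 103 CPM in the otp90 libraries and 331 ± 246 CPM in the Col-0 libraries. Its log2 fold change was -0.70 (SE 0.64), with -0.86 within number 1 and -0.26 within number 2. ERD10 was at 66.8 ± 10.09 CPM in the otp90 libraries and 94.7 ± 76.8 CPM in the Col-0 libraries. Its log2 fold change was -0.51 (SE 0.62), with -1.0 within number 1 and 0.55 within number 2. COR47 and ERD10 were at 0.39 and 0.74 without Col-0 replicate 1. In all 9 genes the otp90 and Col-0 libraries overlapped, while they did not in 25.9% of all genes tested. The median of the 5 tested genes was -0.51, beside -0.0097 for all genes, and 0.61 without Col-0 replicate 1.

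The CBF genes gave no detectable genotype difference at this depth. CBF1 to CBF3 together had 21 counts over the otp90 libraries and 40 over the Col-0 libraries, which relative to library totals is a ratio of 0.710 (95% interval from counting, 0.398 to 1.23). Single genes had ratios of 0.624 (CBF1, interval 0.195 to 1.76), 0.832 (CBF2, 0.299 to 2.17) and 0.676 (CBF3, 0.231 to 1.79). KIN1 was at 0.193 (0.00429 to 1.504). These intervals cover counting error only, and each includes equal levels.

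The replicate numbers separated the genes differently. None of the 5 tested genes passed between number 2 and number 1 by edgeR, against 0.804% of all genes tested. At an unadjusted p under 0.05 there were 3 of the 5 by edgeR, COR47, COR15A and ERD10, beside 8.76% of all genes. By DESeq2 there was 1 of the 5, beside 635 of 11938 genes. COR47 had a log2 fold change, number 2 over number 1, of -1.38 (SE 0.45), and it was negative in both genotypes, at -1.07 within otp90 and -1.68 within Col-0. ERD10 was at -1.10 (SE 0.51), with -0.30 within otp90 and -1.86 within Col-0. COR15A was at 1.30 (SE 0.55), with 2.16 within otp90 and 0.42 within Col-0. In these 3 of 5 tested genes the numbers did not overlap, as in 41.5% of all genes tested.

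For LTI78 and COR15B the sign differed between the genotypes. LTI78 was at -1.49 (SE 0.75) in the fit, where otp90 gave 0.31 and Col-0 gave -3.24. COR15B was at 1.11 (SE 0.80), where otp90 gave 2.84 and Col-0 gave -0.48. With 1 library of each genotype in each number, that difference between genotypes was not tested, and opposite signs were found in 45.3% of all genes tested. The median of the 5 genes was -1.10 in number 2 over number 1, beside 0.025 for all genes. It was 0.31 in the otp90 libraries alone and -1.68 in the Col-0 libraries alone.

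Most CBF counts came from the number 1 libraries. CBF1 to CBF3 together had 10 counts in number 2 and 51 in number 1, which relative to library totals is a ratio of 0.219 (95% interval from counting, 0.0991 to 0.436). CBF2 had 1 count in number 2 and 20 in number 1, a ratio of 0.0558 (0.00135 to 0.349). CBF3 had 4 and 17 counts, a ratio of 0.263 (0.0643 to 0.805). For CBF1 the interval included equal levels, with 5 and 14 counts and a ratio of 0.399 (0.112 to 1.17), and for KIN1 too, at 0.159 (0.00354 to 1.24). All these intervals cover counting error only, and libraries of a genotype differed beyond it. An interval without equal levels is therefore no test of the numbers. The labels do not say what the numbers stand for.

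**Figure D3:**
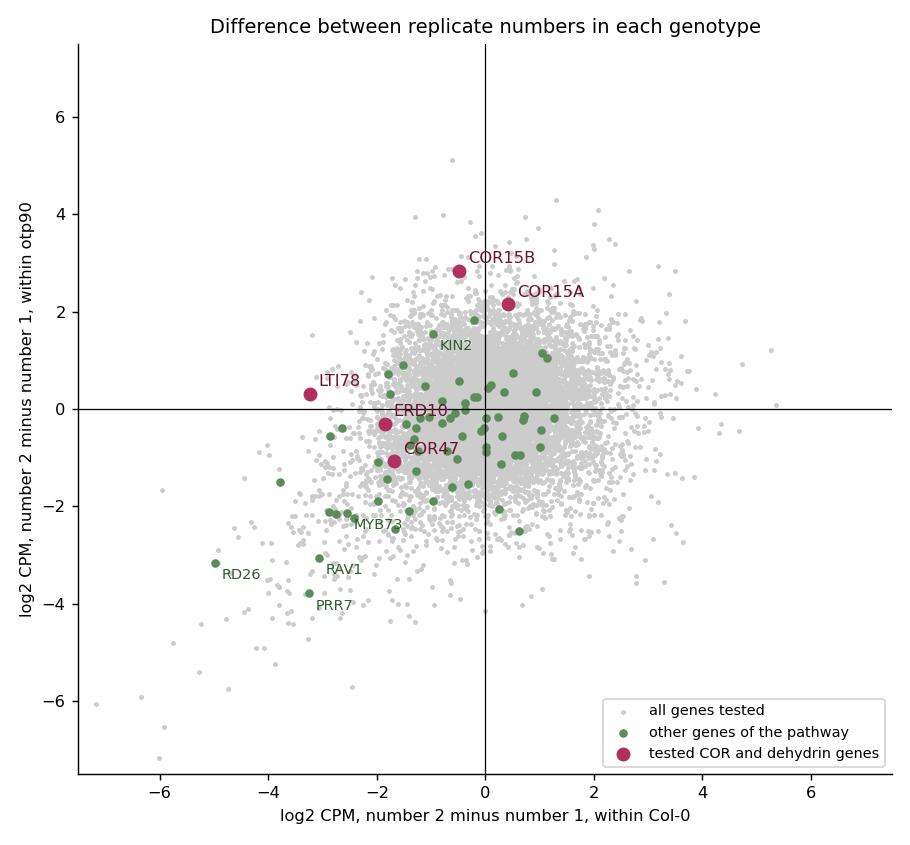
Difference in log2 CPM between replicate numbers (number 2 minus number 1) within otp90 on the y axis and within Col-0 on the x axis, for all 11938 genes tested (grey), other pathway genes (green) and the 5 tested COR and dehydrin genes (red). LTI78 lies far left, at 0.31 in otp90 and -3.24 in Col-0, COR15B high at 2.84 in otp90, and RD26, PRR7, RAV1 and MYB73 low in both genotypes.

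Other genes of the pathway were grouped into 5 lists of 104 genes, of which 68 were tested. Between otp90 and Col-0, 0 of 68 passed and 1 had an unadjusted p under 0.05, a share near the 1.41% of all genes tested, with 32 positive and 36 negative log2 fold changes. That gene was COR413-PM1, which encodes a cold-regulated membrane protein. It had 15.8 and 13.6 CPM in otp90, against 21.8 and 54.0 CPM in Col-0, and its log2 fold change was -1.36 (SE 0.58). The stress-responsive glutathione transferase gene ERD9 had 3.32 and 4.55 CPM in otp90, against 8.62 and 17.5 CPM in Col-0, and its log2 fold change was -1.68 (SE 0.75). Neither passed the test, and although their genotypes did not overlap, the same held for 25.9% of all genes tested.

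Between numbers, 4 of the 68 passed, all lower in number 2, where 0.771% of all genes tested did. Log2 fold changes were positive in 18 and negative in 50, with a median of -0.47. Of all 11938 genes tested, 6158 were positive and 5780 negative, with a median of 0.025. RD26, a NAC transcription factor of the abscisic acid and dehydration response, had 2.27 and 1.09 CPM in the number 2 libraries of otp90 and Col-0, against 29.1 and 68.6 CPM in number 1. Its log2 fold change was -4.71 (SE 0.72; edgeR, adjusted p = 0.00424). The clock repressor gene PRR7, whose protein lowers CBF expression, had 1.14 and 7.64 CPM in number 2, against 29.9 and 82.5 CPM in number 1, a log2 fold change of -3.81 (SE 0.60; edgeR, adjusted p = 0.00503). Both genes were lower in number 2 in both genotypes. That sign was also seen in COR47, ERD10 and, on few counts, CBF2, CBF3 and KIN1, and it was the opposite of that in COR15A. In LTI78, COR15B and, on few counts, CBF1 the sign differed between the genotypes, as it did in 45.3% of all genes tested.

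RAV1 and MYB73 were called as well, transcription factor genes that respond to cold in parallel to the CBF genes. RAV1 had 8.53 and 6.004 CPM in the number 2 libraries of otp90 and Col-0, against 79.8 and 58.7 CPM in number 1, a log2 fold change of -3.24 (SE 0.52; edgeR, adjusted p = 0.00566). MYB73 had 23.9 and 16.9 CPM in number 2, against 109 and 105 CPM in number 1, a log2 fold change of -2.41 (SE 0.48; edgeR, adjusted p = 0.0256). In that list of 11 genes, 8 were tested and all 8 were negative, with a median of -2.39 and 7 at an unadjusted p under 0.05, which 8.76% of all genes tested reached. The zinc finger gene ZAT10 was at -2.67 (SE 0.61) and did not pass (edgeR, adjusted p = 0.0655).

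The list of upstream regulators of the CBF genes was mixed. Of 21 genes, 17 were tested, 5 were positive and 12 negative, and the median was -0.33. The phytochrome-interacting factor gene PIF4 and the clock gene PRR5, both for repressors of CBF genes, were at -1.71 (SE 0.50) and -1.64 (SE 0.64) and did not pass (edgeR, adjusted p = 0.195 and 0.404). PRR5 was high in Col-0 replicate 1 alone, with 17.5 and 13.1 CPM in otp90 and 63.6 and 9.28 CPM in Col-0. Between genotypes PRR5 was at -1.27 (SE 0.80) and PIF7, another repressor of CBF genes, at 1.16 (SE 0.69).

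In the list of DREB and abscisic acid response factors 6 of 18 genes were tested, 1 positive and 5 negative between numbers, with RD26 called and a median of -0.75. The bZIP factor gene ABF1 was at -1.64 (SE 0.63) and ABF2 at 0.66 (SE 0.55). Among other cold and dehydration responsive genes, 24 of 33 were tested and 0 passed by edgeR, with 9 positive, 15 negative and 6 at an unadjusted p under 0.05 in that test, beside 8.76% of all genes. The proline dehydrogenase gene ERD5 was at -2.0 (SE 0.48), the dehydrin gene RAB18 at -2.84 (SE 0.73) and the cysteine protease gene RD19 at -1.76 (SE 0.47). Of these, RD19 passed by DESeq2 (adjusted p = 0.0465). Among genes of abscisic acid synthesis and signalling, 13 of 21 were tested and 0 passed by edgeR, with 3 positive, 10 negative and 2 at an unadjusted p under 0.05, beside the same 8.76%. NCED3, a rate-limiting enzyme of abscisic acid synthesis, was at -2.68 (SE 0.77), and the phosphatase genes ABI1 and PP2CA were at -1.06 (SE 0.44) and -0.90 (SE 0.49).

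Between genotypes, the 2 genes with the smallest p of each list are named. In the list of DREB and abscisic acid response factors these were ABF2 at 0.89 (SE 0.54) and ABF3 at 0.68 (SE 0.66), and among the parallel factors ZAT10 at 1.31 (SE 0.99) and MYB44 at 0.53 (SE 0.60). In abscisic acid synthesis and signalling they were the kinase gene SnRK2.2 at -0.79 (SE 0.44) and the receptor gene PYL5 at 1.22 (SE 0.70). None passed. List medians between genotypes lay between -0.24 and 0.45.

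**Figure D4:**
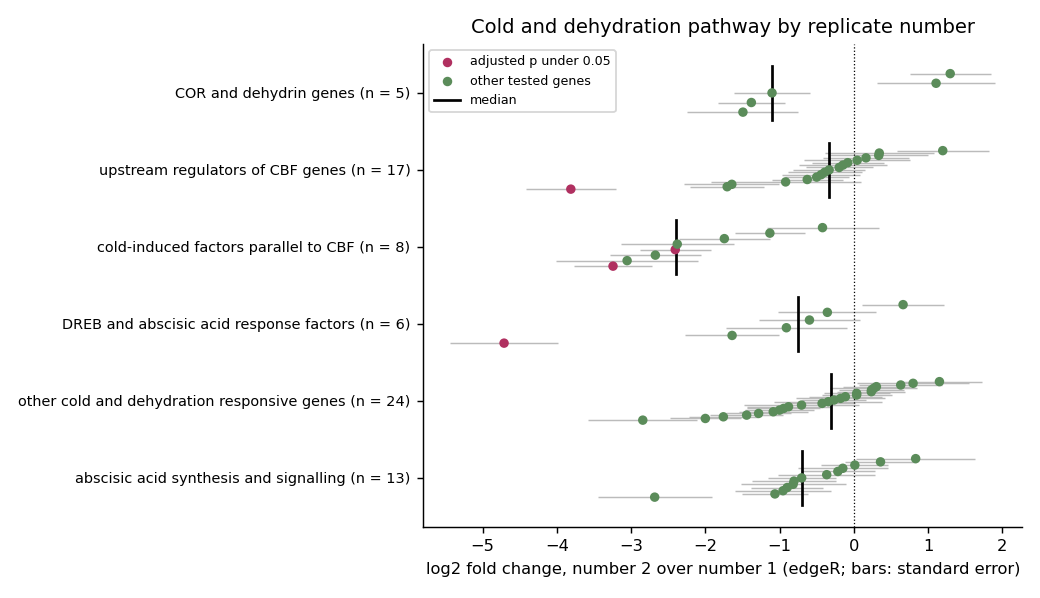
Log2 fold change of number 2 over number 1 (x axis, edgeR, bars are standard errors) for the tested COR and dehydrin genes and 5 pathway lists, with black lines at list medians. Red points are RD26, PRR7, RAV1 and MYB73, the 4 genes with an adjusted p under 0.05, and all 8 parallel factors lie under 0, while COR15A and COR15B lie above it at 1.30 and 1.11.

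Among the 5 tested genes and KIN2, the neighbouring genes had the most similar profiles across the 4 libraries. Distances between centred log2 CPM profiles, where 0 means the same profile, were 0.650 for COR47 and ERD10 and 0.867 for COR15A and COR15B, the smallest among the tested genes and KIN2. COR15A and LTI78 were the farthest apart, at 3.46, and COR15B and KIN2 were at 1.04. Some other genes were closer than the neighbours, with AT2G38820 at 0.0431 from COR47 and PRMT4B at 0.164 from COR15A. The median profile of the 5 tested genes mixes profiles as unlike as those of COR15A and LTI78. It lay nearest to AT4G33980 (distance 0.368), itself in the list of other cold and dehydration responsive genes. AT4G33980 had 5.82 and 10.24 CPM in otp90 and 27.5 and 7.10 CPM in Col-0. The other nearest genes were the coilin gene AT1G13030, AT5G61040, AT4G29950, PDF1, SNOR108, AUG2, AT2G28620, GRP7 and PAHX, up to a distance of 0.466. Of these, AT1G13030, PDF1, AUG2 and AT2G28620 were at only 3.32 CPM each in otp90 replicate 1. GRP7, a clock- and cold-regulated RNA-binding protein gene, had 643 and 1058 CPM in otp90 and 1931 and 729 CPM in Col-0. LTI78 alone was nearest to PYL7 (distance 0.716), at 8.31 and 8.53 CPM in otp90 and 50.5 and 9.28 CPM in Col-0. These are distances over 4 libraries, and Col-0 replicate 1 was the highest library of AT4G33980, GRP7 and PYL7.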

How the data were processed

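RNA was measured in 2 otp90 and 2 Col-0 libraries, made with Trizol extraction, rRNA depletion and stranded, unpaired Ion Proton sequencing, per the labels' protocols. The deposited values are raw counts per gene model, made by the authors with sam2pkm after tied alignments were dropped, per the file headers, on TAIR10, per the submitters' processing notes. Aligner and strand setting are not given in the sources used here. Since the authors' files list gene lengths but no positions, names, coordinates and sequences came from RefSeq TAIR10.1, which matched 32835 of 33602 models.

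Tests on the counts were run in R 4.3.3 (edgeR version 4.0.16). The 15 rRNA models were left out, filterByExpr kept 11938 genes, libraries were scaled by TMM, and the two-sided quasi-likelihood test was adjusted by Benjamini-Hochberg and called at 0.05. Genotypes were compared without a block, and numbers with genotype as a term, with DESeq2 1.42.0 as an alternative. CPM are counts per 1000000 counts of the TMM-scaled library. Log2 CPM used a prior count of 2. Standard errors came from the fold change and the F statistic. Low counts were compared by exact conditional binomial intervals (95%). The tests were checked on simulated data. For the genotype comparison those data held no difference between numbers, so the check does not cover libraries that differ by number. Replicates of a genotype differed beyond sampling noise (chi-square over its degrees of freedom 14.4 for otp90, 23.7 for Col-0). Motifs were counted by exact match on either strand.

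The members, lists, tests and naming rule were chosen with earlier results of these data known. The rule names all members, the called genes of a list or otherwise up to 3 with the smallest p between numbers, 2 between genotypes, close relatives, and the 10 genes nearest to the median profile. ZAT10, PIF4, PRR5, ABF1 and ABF2 complete the 3 names in lists that had called genes. Genes nearest to LTI78, COR47 and COR15A, those next to LTI78 in ratio between libraries, and ANAC019 were named after seeing their values. The annotation names no OTP90 locus, so the targeted gene is not analysed here and gives no check of the labels.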

Additional observations from a re-analysis of the deposited data

Results flagged for a closer look

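In 2 genes the replicate numbers differed in opposite directions in the genotypes. LTI78 had a log2 difference, number 2 over number 1, of 0.313 in otp90 and -3.24 in Col-0. COR15B had 2.84 in otp90 and -0.485 in Col-0. With 1 library of each number per genotype the differences were not tested, and opposite signs were found in 45.3% of all genes tested.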

How the results depend on the processing

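Genotype calls were 0 with DESeq2, DESeq2 size factors, no low-count filter or rRNA kept, and with the replicate block, which left 257 genes at an unadjusted p under 0.05, none of them a member, a member median of -0.24 and LTI78 at -1.50. Leaving out 1 library gave 0 to 33 calls and member medians of -1.14 to 0.61. Calls between numbers were 89 to 113 under the other settings and 214 without the filter, and leaving out a library left no residual degrees of freedom there, so only values are given. The member median between numbers was -1.68 to 0.31. Summed shares, otp90 minus Col-0, ranged from -1101 to 60.7 per 1000000 counts for COR and dehydrin genes and from -7.21 to 4.85 for CBF genes. With 1 library left out, the genotype fold changes were -3.10 to 0.15 for LTI78, -0.70 to 1.52 for COR15A, -1.52 to 1.56 for COR15B, -1.31 to 0.39 for COR47, -1.14 to 0.74 for ERD10, -1.10 to 0.46 for KIN2, -2.05 to 0.72 for PRR5, -0.15 to 3.83 for ZAT10, -0.48 to 1.153 for MYB44 and -0.19 to 1.97 for PYL5. Those of PIF7, ABF2, ABF3, COR413-PM1, ERD9, SnRK2.2 and ERD14 kept their sign. Between numbers, KIN2 ranged from -0.97 to 1.54, NCED3 from -3.79 to -1.50, PP2CA from -1.46 to -0.31, PRR5 from -2.64 to -0.39 and ABF1 from -1.98 to -1.09. Without the filter ZAT10, ERD5, RAB18, RD19 and NCED3 passed as well, and the cause was not tested. Only 2 pairs share a number, and over 11938 genes their differences between numbers correlated at 0.22, so numbers were not treated as pairs. Depth limited KIN1 and the CBF genes.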
